A study of Mus musculus with 2 samples.

Results

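Among CD3-negative cells sorted for the IL-23 receptor reporter and given IL-23, 1351 of 8501 carried at least 2 unique molecular identifiers (UMIs, each standing for 1 captured RNA molecule) of Ctla4, the gene of the co-inhibitory receptor CTLA-4. These 1351 cells are the subject here. They were chosen from the IL-23 library by their own counts: 500 or more genes, mitochondrial UMIs of no more than 10%, no UMI of the CD3 chain genes Cd3e, Cd3d and Cd3g or of Trac, the constant region of the T cell receptor alpha chain, and 2 or more Ctla4 UMIs. They made up 15.9% of the CD3-negative cells (exact binomial 95% interval 15.1% to 16.7%), out of 9251 kept cells of that library and 20041 kept cells of both. The cells came from the small intestine of Il23r-eGFP mice, in which a green fluorescent protein reports the IL-23 receptor gene, and live eGFP-positive leukocytes were sorted after Peyer's patches and epithelium had been taken off. The first library held cells exposed to recombinant mouse IL-23 over 2 hours and the other held cells labelled unstimulated. Genotype, tissue and sort were shared by both. The labels give neither age nor sex nor the number of animals, and the protocol text of both libraries mentions the IL-23 step, so the unstimulated group rests on its treatment label.

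Group 3 innate lymphoid cells (ILC3s) are tissue-resident lymphocytes without antigen receptors that answer IL-23 with IL-22, a cytokine that acts on the gut epithelium. In the mouse intestine they fall broadly into cells with the natural cytotoxicity receptor NKp46 (gene Ncr1), which share a type 1 program with natural killer cells, and CCR6-positive cells related to lymphoid tissue inducer cells, which can present antigen on MHC class II. CTLA-4 is best known on T cells, where it takes the ligands CD80 and CD86 away from the co-stimulatory receptor CD28. Ctla4 lies on chromosome 1 (GRCm38, 60887000 to 60915832, plus strand), between Cd28 (60716800 to 60773359) and Icos (60977927 to 61000320), the gene of another co-stimulatory receptor of the same family.

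Upstream regions are printed for the gene that defines the cells, for Prdm1, which encodes the repressor Blimp-1, and for Gzma, which encodes granzyme A and had the largest ratio outside genes of plasma cells among named genes at 50 CPM or more. Each is the 250 bases before the start that RefSeq gives on GRCm38.p6, 5′ to 3′ on the gene's strand, with motif matches in capitals; the RefSeq starts of Ctla4 and Prdm1 lie inside the spans that GENCODE gives for these genes.
Ctla4, chr1:60908775-60909024, plus strand: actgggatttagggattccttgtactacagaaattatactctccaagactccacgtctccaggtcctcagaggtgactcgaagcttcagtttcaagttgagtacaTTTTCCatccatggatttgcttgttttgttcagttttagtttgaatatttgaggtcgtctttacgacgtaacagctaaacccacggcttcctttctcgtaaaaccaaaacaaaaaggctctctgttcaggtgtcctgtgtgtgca
Prdm1, chr10:44458749-44458998, minus strand: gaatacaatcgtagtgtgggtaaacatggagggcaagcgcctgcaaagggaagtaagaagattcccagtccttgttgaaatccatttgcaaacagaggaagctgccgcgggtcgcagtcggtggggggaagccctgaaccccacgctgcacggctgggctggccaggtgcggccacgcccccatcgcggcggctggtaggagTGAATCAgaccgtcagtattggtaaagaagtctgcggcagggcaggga
Gzma, chr13:113100982-113101231, minus strand: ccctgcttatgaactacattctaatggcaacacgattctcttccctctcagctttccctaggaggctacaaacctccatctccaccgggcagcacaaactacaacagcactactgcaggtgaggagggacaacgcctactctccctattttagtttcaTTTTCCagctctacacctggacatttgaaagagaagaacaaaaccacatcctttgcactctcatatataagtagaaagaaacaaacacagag
Short motifs were searched on both strands. The NFAT core TTTTCC was matched in Ctla4 from 145 to 140 bases before the start and in Gzma from 92 to 87, and 20.4% of 32851 mouse promoter windows of this length hold it. The AP-1 motif TGANTCA was matched in Prdm1 from 48 to 42 bases before the start, against 6.75% of all windows. The STAT palindrome TTCNNNGAA (7.02% of windows) and the T-box motif AGGTGTGA (1.12%) were not in these 3 windows, and no matches overlapped. Such matches describe letters only.

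The 2 libraries held 62291905 and 58443284 UMIs over all barcodes, with medians of 6087 and 4928 UMIs per kept cell in the IL-23 and the unstimulated library. Each condition is 1 library, so no test between conditions or groups was possible: intervals cover counting error only, and a size of at least 1.5-fold was counted as a size, not as a tested change. Levels are the UMIs of a gene scaled to 1000000 UMIs of its group (CPM), and ratios are log2 ratios with 0.5 UMI added to each sum. Since 2 UMIs are found more easily in deep cells, each member was paired with the CD3-negative cell without Ctla4 UMIs that lay nearest in total UMIs. Members and their 1351 partners then had medians of 7395 and 7392 UMIs and 3.20% and 3.22% mitochondrial UMIs. The choice of members used their own expression, so the comparisons between members and partners describe the cells and test nothing. The libraries shared 29 barcodes, 3 of them barcodes of members.

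Ctla4 was not an all-or-none transcript in these cells. Of the CD3-negative cells, 6409 had no Ctla4 UMI and 741 had 1 UMI, just outside the rule. Just inside it, 366 cells had 2 UMIs; 358 had 3 to 4, 365 had 5 to 9 and 262 had 10 or more, with a highest count of 75. The members held 8995 Ctla4 UMIs in all, or 803 CPM. In the unstimulated library 162 of 9980 CD3-negative cells reached 2 UMIs (1.62%, 1.39% to 1.89%), and 4 cells reached 10. With each cell that was CD3-negative thinned to 3000 UMIs, the shares were 9.71% (9.07% to 10.4%, 770 of 7928 cells) and 0.684% (0.526% to 0.874%, 63 of 9210 cells), with 573 and 770 shallower cells left out. Some cells with transcripts of other types also held Ctla4. Among 19 CD3-negative cells of the IL-23 library with transcripts of B cells or macrophages but not of plasma cells, 1 cell (5.26%) had any Ctla4 UMI, at a median depth of 6893 UMIs; with plasma cell transcripts included it was 3 of 22 cells (13.6%, 2.91% to 34.9%, median depth 7476 UMIs), against 24.6% of all CD3-negative cells. In the unstimulated library these were 0 of 34 cells and 7 of 43 cells (16.3%, 6.81% to 30.7%), against 4.81% of all CD3-negative cells, so there the share in cells with plasma cell transcripts lay above the overall share; 6 of the 7 are among the 162, which are described with and without them further on. The cells that the rule set aside for CD3 or Trac also transcribed Ctla4: 380 of 750 had 2 or more UMIs.

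The members carried the core transcripts of ILC3s. Of 18 genes on the ILC3 list 17 were measured, and 15 of them lay within 1.5-fold of the partners. Il23r, whose reporter the sort relied on, stood at 209.8 against 190.5 CPM in members and partners, Rora at 1427 against 1436 and Kit, the stem cell factor receptor, at 315 against 322. The exceptions were Tcf7 (66.1 against 106 CPM) and Tox (33.4 against 56.1 CPM), transcription factors of early innate lymphoid development, which were lower in the members. The median log2 ratio of the list was 0.03, beside -0.06 over all 6995 measured genes.

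Markers of T cells were uneven. Cd6 and Cd8a had no UMI in the members, and Cd5 had 1 UMI. Cd247, the CD3 zeta chain, was at 1.43 CPM and Trdc, the delta chain constant region, at 2.68 CPM, where the CD3-positive cells of the library had 64.0 and 478 CPM. Of the 18 T cell markers 5 reached 10 CPM and 8 were at 0, among them the 4 that the rule used; of the 5 measured ones 3 were at least 1.5-fold higher in the members than in the partners and none was lower; the list summed to 565 CPM in the members, 377 CPM in the partners and 2704 CPM in the CD3-positive cells. The largest share was Trbc1, a constant region of the T cell receptor beta chain, with 279 against 167 CPM and a UMI in 68.1% of members and 43.4% of partners. Only 176 members had no UMI of any T cell receptor constant gene. Paired with cells that also lacked such UMIs, these 176 had median log2 ratios of 1.13 on the list of NKp46-positive ILC3 and type 1 genes and -2.10 on the CCR6-positive list, beside 1.08 and -1.97 over all members, and log2 ratios of 4.20 for Fasl, 0.96 for Gzma, 1.24 for Icos and 2.07 for Prdm1, described further on; Il17a was then higher in the members (0.53), not lower (-0.84). Ratios from so few cells carry more counting error, and of 7145 measured genes 587 were at least 1.5-fold higher and 1281 lower in this setting. The Gzma ratio of 0.96 stood well below its 3.30 over all members. Foxp3, the factor that defines regulatory T cells, had 4 UMIs in 3 members, and Eomes, a factor of natural killer cells, had 2 UMIs in 1 member. Natural killer receptors of the Ly49 family, Klra4 and Klra8, were at 0. The summed level of the natural killer and ILC1 list, 258 against 108 CPM, came largely from Cd226, Gzma and Ncr1, of which the NCR+ ILC3 list also holds Gzma and Ncr1. In the CD3-positive cells the natural killer and ILC1 list summed to 294 CPM, above the members. The regulatory T cell list summed to 1996 against 1691 CPM, the ILC2 list to 133 against 114, the macrophage and dendritic cell list to 179 against 217 and the epithelium and stroma list to 114 against 103. The B and plasma cell list summed to 2771 against 41.1 CPM, nearly all of it in a few cells described with the ratios. List counts over all members that differ without cells of other types are given both ways.

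The members were an NKp46-rich set. At least 1 Ncr1 UMI was found in 482 of the 1351 members (35.7%), against 10.2% of the 6409 cells without Ctla4 and 16.9% of the depth-matched partners. The share with Ncr1 was 21.6% among cells with 1 Ctla4 UMI, 29.8% with 2, 41.6% with 5 or more and 45.4% with 10 or more. Ccr6, the chemokine receptor of the other ILC3 branch, was found in 77 members (5.70%) and in 345 partners (25.5%). Sorted by both genes, 463 members had Ncr1 only, 58 had Ccr6 only, 19 had both and 811 had neither, and a cell without a UMI may still have expressed the gene. Cells with more Ctla4 UMIs were deeper, from a median of 5703 UMIs per cell at 0 to 8672 at 10 or more.

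**Figure D1:**
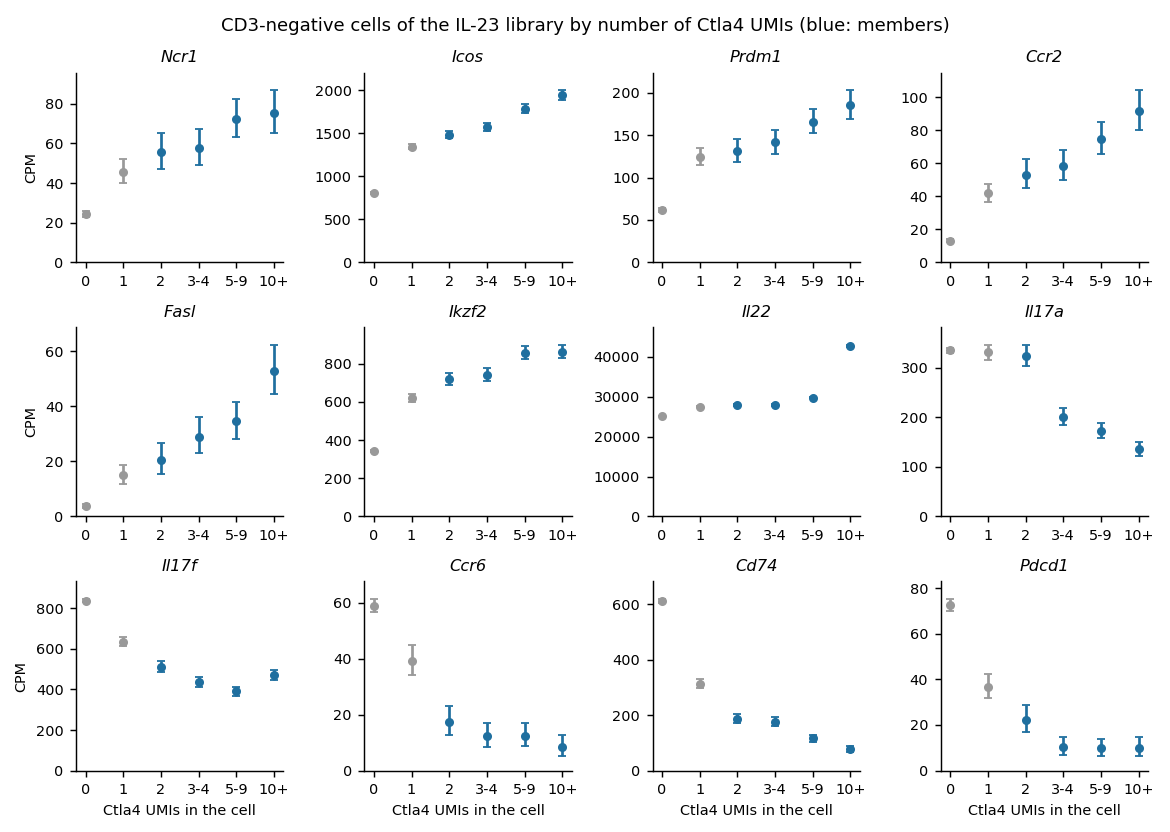
Summed level (CPM, vertical axes from 0) of 12 genes in CD3-negative cells of the IL-23 library, by the number of Ctla4 UMIs in the cell (horizontal axes); grey points are cells with 0 or 1 Ctla4 UMI, blue points are members, and bars are exact Poisson 95% intervals. Icos stood at 808 CPM with 0 Ctla4 UMIs and 1944 CPM with 10 or more, and Ccr6 at 58.9 and 8.47 CPM; these classes are not matched for depth.

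The plot by Ctla4 count shows no step at 2 UMIs. Icos was at 808, 1344, 1485, 1576, 1788 and 1944 CPM in cells with 0, 1, 2, 3 to 4, 5 to 9 and 10 or more Ctla4 UMIs. Its largest difference between neighbouring classes lay between 0 and 1 UMI. Fasl, which encodes the death ligand FasL, went from 3.81 through 15.0 and 20.5 to 52.8 CPM over the same range. Cd74, the invariant chain of MHC class II, ran the other way, from 612 through 313 and 188 to 77.4 CPM. Il17f was lowest in the class with 5 to 9 UMIs, at 392 CPM, and stood at 471 CPM above it.

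Against their partners, the members had higher levels of cytotoxic and type 1 genes. Of 6995 measured genes, 280 were at least 1.5-fold higher (4.0%) and 465 at least 1.5-fold lower (6.65%). The list of the NCR+ and type 1 program holds 27 genes, of which 20 were measured. Of these, 17 were higher and none lower, with a median log2 ratio of 1.08. Prf1, the gene of perforin, was on the list but under 10 CPM in both groups. Klrd1, also on the list, had no UMI in the Ncr1-positive members. Gzma was at 74.3 (69.3 to 79.5) CPM in the members and 7.51 (5.99 to 9.30) in the partners, a log2 ratio of 3.30 (95% interval 2.98 to 3.65), with a UMI in 131 against 24 cells. Fasl was at 33.9 (30.6 to 37.5) against 4.11 (3.01 to 5.49) CPM, a log2 ratio of 3.03 (95% interval 2.60 to 3.52), in 184 against 24 cells. In both genes most members had no UMI, so the high sums came from a minority of the cells. Nkg7, a granule membrane protein of cytotoxic lymphocytes, was 4.06-fold higher (79.0 against 19.4 CPM), and Gzmb, granzyme B, 2.31-fold (85.9 against 37.2 CPM). Ifng, the type 1 cytokine interferon gamma, was at 38.6 against 16.7 CPM with a UMI in 6.66% and 2.00% of cells; 1 member held 71 of its 432 UMIs. Tbx21, which encodes the type 1 factor T-bet, was at 17.2 against 8.05 CPM and Klrk1, the activating receptor NKG2D, at 439 against 219 CPM. Il2rb, Stat4 and Zeb2, the other measured genes of the list, lay within 1.5-fold. Without cells of other types 17 of 20 were higher as well. The list summed to 4409 CPM in the members and 2949 CPM in the partners. In the CD3-positive cells, which were not matched for depth, it summed to 3555 CPM.

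Receptors and granule genes of cytotoxic lymphocytes stood among the rest of the upper end. Ccr2, the receptor of monocyte chemoattractants, was 3.44-fold higher (69.3 against 20.1 CPM). Klrc1, which encodes the inhibitory receptor chain NKG2A, was at 54.4 against 22.4 CPM, and Ltb4r1, a leukotriene B4 receptor, at 62.9 against 22.6 CPM. Ctsw, a cathepsin of cytotoxic cells, was at 146 against 55.9 CPM, and the lymphocyte GTPases Gimap3 and Gimap4 at 218 against 92.7 and 146 against 64.2 CPM. Further genes of the 20 highest ratios were Lgals1 (3.18-fold), B3galt2 (2.98-fold), Cdk14 (2.59-fold), Cd200r4 (2.37-fold) and Ccl4 (2.69-fold). For Ccl4, an inflammatory chemokine, 1 partner held 121 of the 212 UMIs of its group, and without cells that carry transcripts of other cell types the levels were 41.9 against 8.20 CPM. The 4 highest ratios of all, Igha, Jchain, Iglc1 and Igkc, are transcripts of plasma cells: 2 members held 30722 of the 30813 UMIs of these genes, and without such cells Igkc stood at 2.96 against 3.24 CPM. That setting, chosen after the data were seen, left out 3 members and called 294 genes higher (4.23%) and 421 lower (6.06%).

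The CCR6-positive program was lower throughout. All 17 measured genes of its list were at least 1.5-fold lower in the members, with a median log2 ratio of -1.97, and all 17 were lower without cells of other types as well. Ccr6 was at 12.6 (10.6 to 14.8) CPM in the members and 61.3 (56.8 to 66.0) in the partners. The MHC class II genes H2-Aa, H2-Ab1 and H2-Eb1 were at 52.8 against 219.6, 30.2 against 114 and 27.2 against 116 CPM, and their chaperone Cd74 at 139.7 against 565 CPM, a log2 ratio of -2.02 (95% interval -2.10 to -1.94). Nrp1, the co-receptor neuropilin 1, was at 57.7 against 129.6 CPM, Cd4 at 5.00 against 19.7 CPM and S1pr1, the receptor for egress from tissue, at 6.61 against 33.9 CPM. Genes of the 10 lowest ratios outside the list were Pdcd1, which encodes PD-1 (13.0 against 70.5 CPM), the growth factor Bmp2 (11.3 against 56.3 CPM), the Notch ligand Dll1 (12.6 against 60.9 CPM), the adhesion molecule Alcam (12.1 against 55.8 CPM), Foxs1 (7.05 against 50.5 CPM) and Bend4 (11.0 against 50.4 CPM). Cd81, a tetraspanin of the list, was at 19.2 against 86.7 CPM. The 2 lowest ratios were those of Selp, the endothelial adhesion molecule P-selectin, and Ifitm3: 2 partners held 707 of the 708 Selp UMIs, and without such cells Ifitm3 was at 3.23 against 1.98 CPM.

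**Figure D2:**
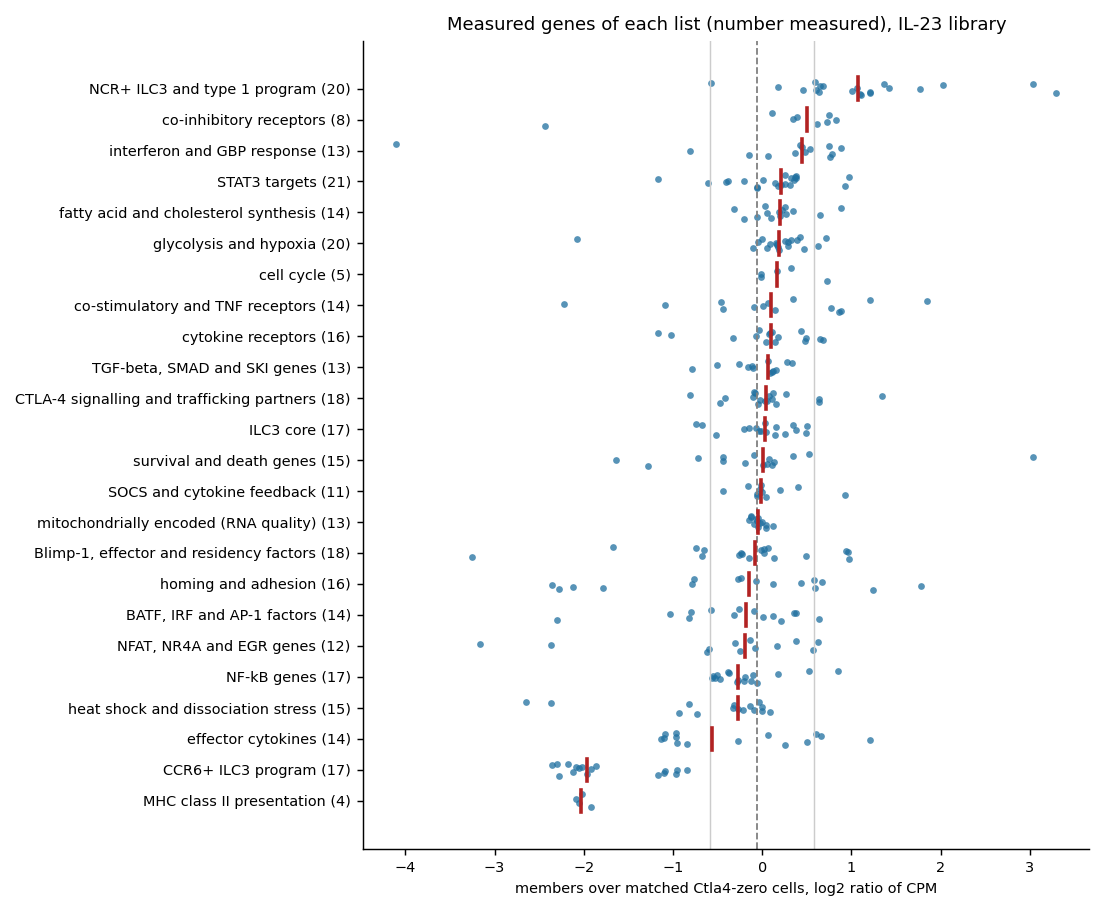
Log2 ratio of members over depth-matched CD3-negative cells without Ctla4 UMIs in the IL-23 library (horizontal axis) for the measured genes of 24 gene lists (rows, number measured in brackets); each blue point is a gene, red bars are list medians, the dashed line is the median of all measured genes and the pale lines mark 1.5-fold. The NCR+ and type 1 list sits highest (median 1.08) and the CCR6+ (-1.97) and MHC class II (-2.04) lists lowest, and Ctla4 itself is not plotted.

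Among co-receptors, the neighbours of Ctla4 differed. Icos was at 1697 (1673 to 1722) CPM in the members and 938 (919.7 to 956) in the partners, with a UMI in 98.5% and 84.7% of cells, so it was abundant in both groups and 1.81-fold higher in the members. Cd28, its neighbour on the other side of Ctla4, had 16 UMIs in the members and 4 in the partners, and the CD3-positive cells had 78.7 CPM. The ligands Cd80 and Cd86 were under 2 CPM in both groups. Of 14 measured co-stimulatory and TNF receptor genes, 5 were higher and 2 lower: Tnfrsf18, the receptor GITR, was at 701 against 379 CPM, Cd226 (DNAM-1) at 95.2 against 55.7 and Slamf7 at 24.6 against 6.80 CPM. Of 8 measured co-inhibitory genes other than Ctla4, 4 were higher, among them Cd244a (44.3 against 26.7 CPM) and Cd274, which encodes PD-L1 (53.2 against 31.7 CPM), and Pdcd1 alone was lower. Lag3, Tigit, Havcr2 and Btla, receptors that accompany CTLA-4 on exhausted T cells, did not reach 10 CPM in either group. Of 18 measured genes for signalling and trafficking partners of CTLA-4, 3 were higher and 1 lower. The higher ones were Lck (19.6 against 7.69 CPM), Pik3r1 (306 against 196 CPM) and Sh2d2a (77.2 against 49.7 CPM). Among all 6995 measured genes 280 were higher and 465 lower, so 1 lower gene of 18 was near the share of all genes. The same background applies to the other list counts over all members. The clathrin adaptor gene Ap2m1, whose product takes CTLA-4 into the cell, was at 74.1 against 76.6 CPM.

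Prdm1, the gene of Blimp-1, which represses rival programs in effector lymphocytes, was at 156 (149 to 164) CPM in the members and 79.7 (74.5 to 85.1) in the partners, a log2 ratio of 0.97 (95% interval 0.85 to 1.09). A Prdm1 UMI was found in 53.3% of members and 30.5% of partners. The Ikaros family members Ikzf2 (Helios) and Ikzf3 (Aiolos) were 1.95-fold and 1.92-fold higher (796 against 408 and 269 against 139.9 CPM). Together with Prdm1 these were the 3 higher genes among 18 measured on the Blimp-1, effector and residency list, where 5 were lower, such as Tox2 (20.3 against 64.7 CPM). Without cells of other types 3 of 17 were lower, and Klf2, a factor of recirculating lymphocytes, went from 28.1 against 44.4 to 28.0 against 27.6 CPM. On the list of BATF, IRF and AP-1 factors 1 of 14 measured genes was higher, Irf8 (218 against 140.2 CPM), and 4 were lower. The background for these lists is 280 higher and 465 lower of all 6995 measured genes. Batf, an AP-1 factor, was at 595 against 514 CPM and Irf4 under 10 CPM in both groups. On the NFAT, NR4A and EGR list, which holds genes that antigen receptor signals raise in T cells, 1 of 12 measured genes was higher and 4 were lower (1 and 2 of 11 without cells of other types), with Nr4a1 at 164 against 249 CPM.

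Targets of STAT3, the factor that IL-23 activates, were close to even between the groups. Of 21 measured targets 17 lay within 1.5-fold, and 18 without cells of other types, with a median log2 ratio of 0.21. Socs3, the feedback inhibitor of this pathway, was at 791 against 825 CPM and Stat3 at 1178 against 909 CPM. Socs2 was the 1 higher gene of 11 measured on the SOCS list (163 against 85.6 CPM). Most measured genes also lay within 1.5-fold on the lists of NF-kB genes (16 of 17) and TGF-beta and SMAD genes (12 of 13). So did 17 of 20 for glycolysis and hypoxia, 12 of 14 for fatty acid and cholesterol synthesis and 12 of 16 for cytokine receptors. All 13 mitochondrially encoded genes lay between. Of 15 heat shock and dissociation genes 5 were lower and none higher, with Jun at 269 against 475 CPM. The interferon and GBP list had 4 of 13 higher and 2 lower, and 7 of 12 higher and none lower without cells of other types.

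Cytokines differed in both directions, beside 280 higher and 465 lower of all 6995 measured genes. Il22 made up 31890.0 CPM in the members and 26684 in the partners, 1.20-fold more, and it was found in 1348 and 1351 of the 1351 cells of each group. In the 19 cells with B cell or macrophage transcripts Il22 was at 5606 CPM and in 84.2% of cells, so a high share of cells with Il22 was not limited to ILC3s. The deepest of these 19 cells had 47655 UMIs, and the source of their Il22 UMIs was not tested. The share of cells with Il22 is therefore given as detection only. Il17a was at 208 against 373 CPM and Il17f at 450.4 against 871 CPM, lower in the members by 1.79-fold and 1.93-fold. Over the list of effector cytokines 3 of 14 measured genes were higher (Ifng, Areg and Tgfb1) and 7 lower, among them Tnf (15.4 against 33.7 CPM) and Lta (12.6 against 27.0 CPM). For Areg, the epithelial growth factor amphiregulin, 1 member held 265 of 646 UMIs. Il10 was at 0.0893 against 0.358 CPM.

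Genes of homing and survival also differed in both directions, beside the same 280 higher and 465 lower of 6995 measured genes. Of 16 measured homing and adhesion genes 5 were higher and 6 lower (4 and 6 without cells of other types): Cxcr6, a chemokine receptor of tissue-resident lymphocytes, was at 494 against 327 CPM and the gut-homing receptor gene Ccr9 at 15.7 against 6.62 CPM, while the follicle-homing receptor gene Cxcr5 was at 6.70 against 29.3 CPM and Itga4, the integrin alpha 4 chain, at 57.1 against 98.7 CPM. Of 15 measured survival and death genes Fasl alone was higher and 3 were lower, among them the anti-apoptotic Bcl2 (26.0 against 63.4 CPM) and Fas, the receptor of FasL (28.3 against 46.6 CPM). Of 5 measured cell cycle genes only Top2a was higher (14.6 against 8.85 CPM), and Pcna, the replication clamp, was at 155 against 156 CPM. Of the list of CTLA-4 and CD28 ligands and the B7 family, Cd274 alone was measured.

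Fewer genes differed within Ncr1-positive cells. The 482 members with Ncr1 were paired again, with Ncr1-positive cells without Ctla4 (656 in the library), and the groups had medians of 7932 and 7725 UMIs. Depth was matched less closely here than over all members. The groups held 4322657 and 4016468 UMIs, and their deepest cells had 32770 and 22021. Of 6768 measured genes 108 were at least 1.5-fold higher (1.60%) and 159 lower (2.35%). On the NCR+ and type 1 list 6 of 19 measured genes were higher and none lower, with a median log2 ratio of 0.23: Gzma, Fasl, Ccl3, Nkg7, Ccl4 and Ifng. Gzma was at 81.4 against 16.7 CPM, a log2 ratio of 2.28 (95% interval 1.91 to 2.69), and Fasl at 41.6 against 7.97 CPM, a log2 ratio of 2.37 (95% interval 1.84 to 2.98). Gzma, Fasl and the chemokine receptor gene Ccr2 (71.3 against 28.4 CPM) were thus still over 2-fold higher, and Klrc1 was 1.70-fold higher. Tbx21 (22.4 against 21.2 CPM), Xcl1 (57.6 against 65.5 CPM) and Gzmc (489.5 against 555 CPM) were not higher. Icos and Prdm1 were at 1695 against 1438 and 165 against 138 CPM, 1.18-fold and 1.19-fold higher.

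Further genes of the 10 highest ratios within Ncr1-positive cells were Ifitm2 (84.4 against 31.6 CPM), Flna, which encodes the actin linker filamin A (50.4 against 32.9 CPM), Ncapd3 (54.1 against 35.4 CPM) and Smim3 (78.7 against 52.0 CPM). On the CCR6-positive list 8 of 14 measured genes were lower, with a median log2 ratio of -0.68, and Ccr6 itself was at 9.25 against 11.2 CPM in these cells. The 5 lowest were the heat shock gene Hspa1a (26.1 against 75.7 CPM), H2-Aa (28.0 against 62.2 CPM), Cd74 (69.9 against 141 CPM), Il17f (295 against 539 CPM) and Cd83 (49.97 against 83.7 CPM). Single cells weighed on some of these sums: 1 Ncr1-positive member held 71 of 277 Ifng UMIs, 1 held 80 of 352 Gzma UMIs, and 1 partner held 320 of 676 Il17a UMIs. With at least 2 Ncr1 UMIs asked for, the log2 ratio of Ifng was -0.48 and that of Cd74 0.14.

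**Figure D3:**
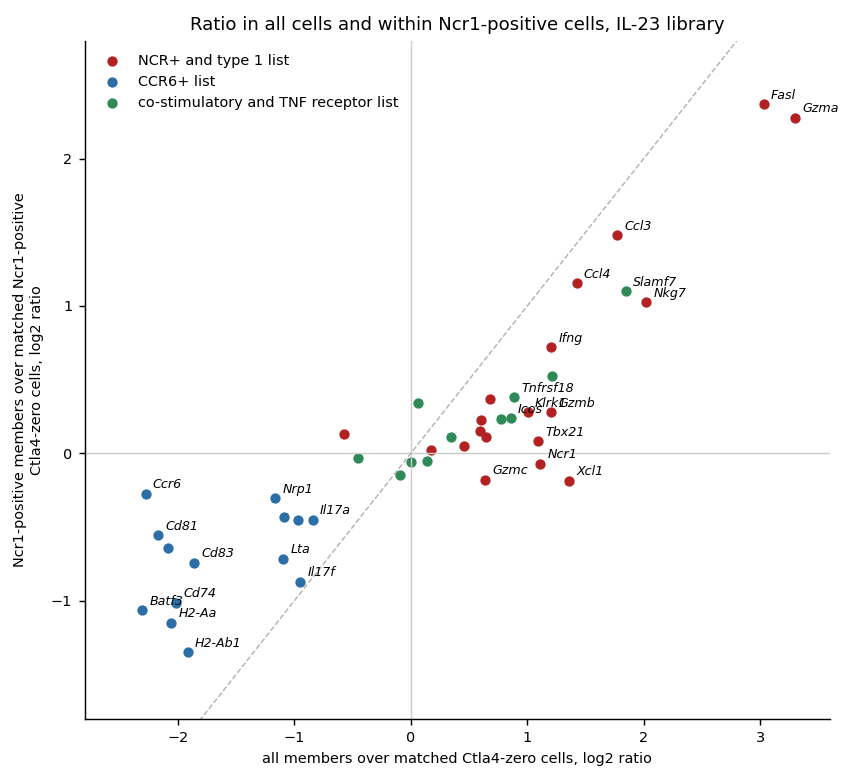
Log2 ratio of all members over matched Ctla4-zero cells (horizontal axis) and of Ncr1-positive members over matched Ncr1-positive Ctla4-zero cells (vertical axis) in the IL-23 library, for the 44 genes of 3 lists measured in both; the dashed line is equality, and the Ncr1-positive members are part of the members. Most red and blue points lie nearer 0 on the vertical axis, while Fasl (3.03 and 2.37) and Gzma (3.30 and 2.28) stay far from it.

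The 869 members without an Ncr1 UMI stood near those with one on several of these genes. They too were paired again, with Ncr1-zero cells without Ctla4, so both kinds of partners below were drawn anew. Icos was at 1696 CPM in Ncr1-positive and 1699 CPM in Ncr1-zero members, but at 1438 and 812 CPM in the Ncr1-positive and Ncr1-zero partners. Gzma was at 81.4 and 69.8 CPM in the 2 kinds of members and at 16.7 and 10.5 CPM in the 2 kinds of partners. Both partner levels lay above that of the partners of all members, so the size of the Gzma ratio depends on which cells are drawn. Ccr6 was low in both kinds of members (9.25 and 14.7 CPM) and high in Ncr1-zero partners (73.7 CPM). Genes that did differ between the 2 kinds of members were Ifng (64.1 and 22.5 CPM), Il17f (295 and 548 CPM) and Il17a (123 and 261 CPM). Within Ncr1-zero cells, a comparison added after the data were seen, 379 of 7061 genes were higher (5.37%) and 593 lower (8.40%), and 16 of 19 genes of the type 1 list were higher and 1 lower, Zeb2 (124 against 215 CPM).

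Within the members, the cytotoxic genes only partly overlapped. Fasl was found in 37 of the 131 members with Gzma (28.2%) and in 147 of the 1220 without (12.0%). Ncr1 was as common with Gzma (35.1%) as without it (35.7%), and Ifng likewise (6.87% and 6.64%). Members with Ifng had Fasl in 36.7% of 90 cells, against 12.0% of those without. The Gzma-positive members held less Il17a, 31.0 against 229 CPM, at similar median depths of 7659 and 7360 UMIs.

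The 77 members with Ccr6 carried transcripts of the other branch. They had Il17f in 79.2% of cells and H2-Aa in 41.6%, against 39.3% and 5.34% of the members without Ccr6, and Gzma in 2 cells. Icos was found in 96.1% of them and stood at 1212 CPM, and Cd74 at 698 CPM. These cells were deep, with a median of 13193 UMIs against 7395 over all members, and the part of doublets in them was not tested.

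The same rule was applied to the unstimulated library, whose cells had not entered the choice of members, and gave 162 Ctla4-positive cells, paired with as many partners. Of 7362 measured genes 539 were at least 1.5-fold higher (7.32%) and 1086 lower (14.8%), so 33.2% of the sizes were higher; centred on the median ratio of -0.11 this share was 47.8%. Of the 162 cells 6 had plasma cell transcripts and a median of 26139 UMIs, and 2 partners had B cell and endothelial transcripts. Without them the counts were 717 higher (9.94%) and 646 lower (8.96%) of 7212, and some values without them follow. The type 1 list had 12 of 20 measured genes higher and none lower, and the CCR6-positive list 14 of 18 lower and 1 higher; without those cells these were 13 of 20 higher and none lower, and 13 of 16 lower and none higher. Fasl was at 51.8 (40.5 to 65.3) against 9.69 (5.16 to 16.6) CPM, Nkg7 at 77.3 against 26.1 CPM and Ncr1 at 63.5 against 35.0 CPM, and Pdcd1 at 20.4 against 85.0 CPM. Icos was at 767 against 513 CPM, just under 1.5-fold (881 against 558 CPM without those cells), and Prdm1 was 2.19-fold higher (37.9 against 17.1 CPM); without the other cells Prdm1 was at 36.1 against 8.41 CPM.

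Some genes of the members had few UMIs in the unstimulated library, where the Ctla4-positive cells were also fewer. Gzma had 5 UMIs in the unstimulated Ctla4-positive cells and 0 in their partners, and Ifng had 9 and 1. These 162 Ctla4-positive cells held 1370858 UMIs of all genes, where the 1351 members held 11199154, so the raw counts do not compare directly. Cd28 was at 18.2 CPM, or 25 UMIs in 6 cells, in the unstimulated Ctla4-positive cells, and at 0.840 CPM without the cells of other types. Il22 was lower in Ctla4-positive cells, at 3204 against 5982 CPM, and so were Socs3 (133 against 317 CPM) and Il17a (1.46 against 17.9 CPM). The level of Il17a in the Ctla4-positive cells rests on very few UMIs. All 3 pairs of levels include the cells of other types. Without such cells the lowest log2 ratio on the SOCS list went from -1.255 to -0.813. Whether the ratios of Ctla4-positive cells over partners differ between the libraries was not tested, and IL-23 and library cannot be told apart.

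**Figure D4:**
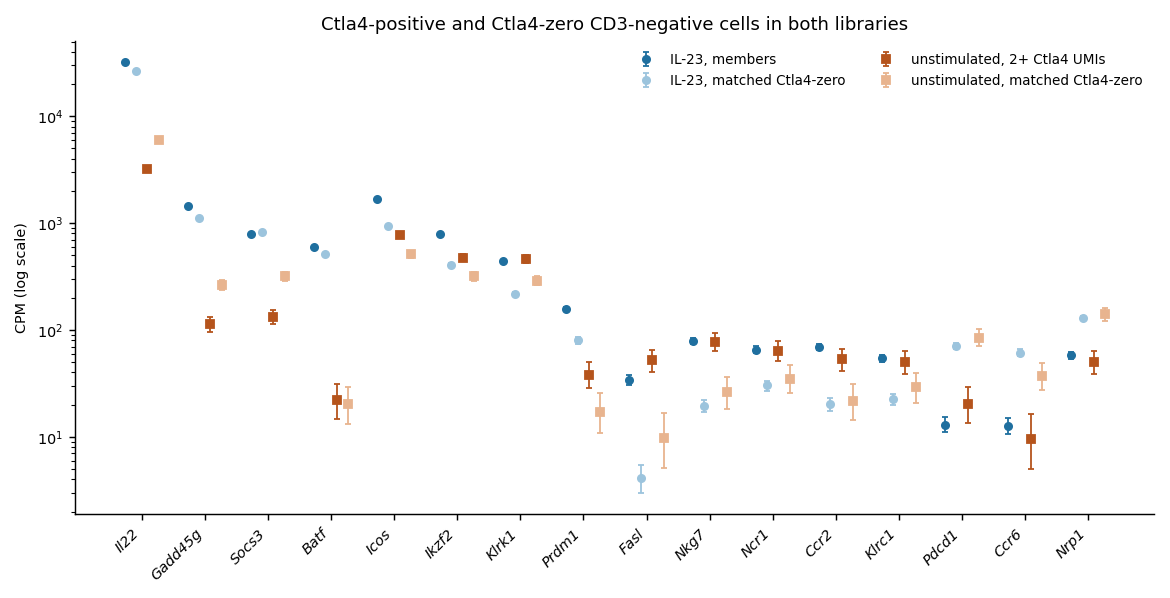
Level (CPM, logarithmic vertical axis) of 16 genes in Ctla4-positive CD3-negative cells and their depth-matched Ctla4-zero partners, in the IL-23 library (blue circles, 1351 cells each) and the unstimulated library (orange squares, 162 cells each); bars are exact Poisson 95% intervals. Il22 stood at 31890.0 and 26684 CPM with IL-23 and at 3204 and 5982 CPM without, while Fasl was higher in the Ctla4-positive cells of both.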

How the data were processed

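Single-cell RNA was counted with 10x Genomics droplets in 1 library of IL-23-treated and 1 of unstimulated cells. The deposited values are whole-number UMI counts per gene and barcode for 32285 genes, with no normalization by the authors. Cell Ranger 3.1.0 and build mm10 are named per the submitters' processing notes, and cellranger 6.0.0 per the file headers; the sources used here do not say which of them made these counts or how empty droplets were set aside.

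Barcodes with under 500 genes or over 10% mitochondrial UMIs were left out. No doublet caller was run; leaving out cells over the 95th percentile of UMIs stood in for one. Members and partners were paired from the deepest cell down. UMIs were summed per group and scaled to CPM, with exact Poisson intervals for levels, conditional binomial intervals for ratios and exact Clopper-Pearson intervals for shares, all at 95%. A gene counted as measured when either group reached 10 CPM and both together 20 UMIs. Thinning used seed 7. The steps were tested on simulated data (Python 3.11.15, numpy 2.4.6, scipy 1.17.1, pandas 2.3.3).

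The members, the gene lists and the comparisons were chosen with earlier results of these data known. Named genes were the list genes and, among genes with a proper name (not a model number) at 50 CPM or more, the 20 highest and 10 lowest ratios over all members and the 10 highest and 5 lowest within Ncr1-positive cells; a few of these are not reported here. Cells of other types were those with at least 5 UMIs of plasma cell or endothelial genes, or 3 of B cell or macrophage genes. Of the list genes, 2 were not matched in the feature tables. Positions came from GENCODE for GRCm38 and upstream sequences from RefSeq on GRCm38.p6. Bcl2a1b and Bcl2a1d are near-identical copies and are not described singly. With cells of 1 library per group, p-values were not computed.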

Additional observations from a re-analysis of the deposited data

Results flagged for a closer look

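In 5 genes the Ctla4-positive cells stood above their partners in one library and below them in the other, beyond counting error; with 1 library each, the difference between libraries was not tested. Cd74 had a log2 ratio of -2.02 in the IL-23 library and 0.80 in the unstimulated one, Gbp2, an interferon-induced GTPase, 0.88 and -0.79, and Ifitm2, an interferon-induced membrane protein, 0.24 and -2.85. Without cells that carry transcripts of other types the unstimulated ratios were -0.86, 0.74 and 0.97, on the same side as with IL-23. Il22 had 0.26 with IL-23 and -0.90 without, and -0.77 without those cells. Gadd45g, a stress gene and STAT3 target, had 0.38 and -1.22, and 0.05 (95% interval -0.28 to 0.39) without those cells.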

How the results depend on the processing

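Leaving out cells of other types, thinning only CD3-negative cells, and the comparison within Ncr1-zero cells, were chosen after seeing the data. No paired analysis was possible because each condition is 1 library, and no replicate existed to leave out. Where a value moved, the cause was not tested beyond what the setting itself changes, such as fewer cells or fewer genes counted. The list medians for the type 1 and the CCR6-positive programs over all members of the IL-23 library kept their signs under every alternative run.

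Counts of genes at least 1.5-fold higher and lower over all members were 280 and 465. They were 587 and 1281 among cells without a T cell receptor constant UMI, 136 and 112 at 50 CPM or more, 618 and 1608 with no CPM filter, and 70 and 173 for a size of 2-fold; 445 were higher with no matching. Within Ncr1-positive cells, 108 and 159 became 378 and 410 without a receptor constant UMI (43 members), 10 and 12 at 50 CPM, 357 and 539 with no CPM filter, 19 and 25 for 2-fold, and 380 and 567 with 2 or more Ncr1 UMIs; 263, 103 and 256 were lower with 3 or more Ctla4 UMIs, with 1 or more, and without cells over the 95th percentile of UMIs. In the unstimulated library, 539 and 1086 became 294 and 616 with 1 or more Ctla4 UMIs, 129 and 217 at 50 CPM, and 193 and 423 for 2-fold; 168 were higher without a receptor constant UMI (18 cells), and 647 and 646 were lower without cells over the 95th percentile and without cells of other types. Higher genes were 37.6% of all sizes over all members, 46.0% after centring on the median, 49.9% with no matching and 54.8% at 50 CPM.

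The share of members, 15.9% with IL-23 and 1.62% unstimulated, was 24.6% and 4.81% at 1 or more UMIs, 11.6% and 0.651% at 3 or more, 9.81% and 0.664% thinned with the CD3 and Trac rule applied to the thinned counts of all kept cells, 9.71% and 0.684% thinned among cells CD3-negative beforehand, 6.16% and 0.536% without a receptor constant UMI, and 14.9% and 1.36% without the 95th percentile; at 200 genes or more it was 14.6% with IL-23.

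Signs turned for these log2 ratios. Over all members, Gbp2 (-0.17) and Il17a (0.53) turned without a receptor constant UMI, Igkc (-1.63) without the 95th percentile, Klf2 (0.020) without other cell types, and the B7 list median (-0.16) with no CPM filter. Within Ncr1-positive cells, Cd74 (0.48), Cd83 (0.10), Flna (-0.76), Ifitm2 (-0.79), Il17f (1.05) and the medians of the CCR6-positive (0.29) and MHC class II (0.48) lists turned without a receptor constant UMI, and Cd74 (0.14) and Ifng (-0.48) with 2 or more Ncr1 UMIs. In the unstimulated library, Ccl3 (-0.31), H2-Eb1 (0.068), Klrc1 (-0.13), Tbx21 and Xcl1 (both -0.057) turned with 3 or more Ctla4 UMIs; Cd74 (-0.47) and Gbp2 (0.013) with 1 or more; Gbp2 (0.73), Ifitm2 (0.11), Ifitm3 (0.22) and Klf2 (0.063) with no matching; Cd74 (-2.81), Gadd45g (0.014), Gbp2 (1.05) and Ifitm2 (0.80) without the 95th percentile; Cd74 (-0.70), Gimap4 (-0.72), Klrk1 (-0.0055), Pik3r1 (-0.18) and the type 1 list median (-1.14) without a receptor constant UMI; and Cd74 (-0.86), Gadd45g (0.055), Gbp2 (0.74), Ifitm2 (0.97) and Klf2 (0.22) without other cell types.

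Depth limited the sparse genes: Ncr1 and Gzma were missing from most cells, so a class by 1 UMI is a class by detection.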
